A study of Mus musculus with 16 samples.

Results

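The genes described here store, carry, oxidize and sense vitamin A: Lrat, Rbp4, Stra6, Rdh10, Dhrs3, Dhrs4, Aldh1a1, Aldh1a2 and Rarb. They were taken by gene symbol, and they are 9 of the 32989 genes in the tables of liver and kidney expression. The Aldh1a1 symbol stands on 2 rows, of which the row with the higher mean was used. RNA from liver and kidney of male C57BL/6J mice was sequenced as 1 library per mouse and organ, which makes 16 libraries. The LD-conditioned mice L63, L65, L86 and L104 lived under a fixed light-dark cycle, and the ADV-conditioned mice A75, A91, A94 and A115 under a cycle advanced by 8 h every 4 days. Both conditions lasted 85 weeks, all 8 mice were aged 97 weeks, and no genetic change or drug was part of either condition. According to the methods, organs were collected in a single window of hours after the last light-on. A shift in the phase of a gene's rhythm and a change of its mean level cannot be told apart from such a window. The study asked how long-term circadian misalignment changes the transcriptome of these organs. Levels are given in FPKM, fragments scaled to exon length and to the library total, so that levels of different genes can be set side by side.

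Dietary vitamin A reaches the liver mainly as retinyl esters in chylomicron remnants, is hydrolysed to retinol, and is stored mainly in hepatic stellate cells as retinyl esters made by LRAT. Hepatocytes release retinol into blood bound to RBP4, and target cells take it up through receptors such as STRA6. Inside cells, retinol is oxidized to retinaldehyde, chiefly by RDH10, and then to retinoic acid by ALDH1A enzymes, while DHRS3 turns retinaldehyde back into retinol. Retinoic acid binds receptors such as RARB, whose own gene is a classic target of the acid.

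Promoter sequence was found for 8 of the 9 members (RefSeq, GRCm38.p6), in 15 windows from 250 bases before to 50 bases after a start. The windows were searched on both strands for the hexamer AGGTCA with its variants GGGTCA, then AGTTCA, then GGTTCA, to which retinoic acid receptors and related nuclear receptors bind, and for pairs of them in the same direction spaced by 1, 2 or 5 bases (DR1, DR2 and DR5). In 4 members 1 window held at least 1 hexamer, which makes 4 of the 15 windows: Rbp4, Aldh1a1, Rarb and a later start of Stra6. The other windows of Rbp4, Aldh1a1 and Stra6 held none. Of the 32544 different windows in the table, 43.7% held at least 1 of the hexamers, so that its presence is common. A DR5 pair was rarer, at 0.0983% of windows, against 0.224% for DR1 and 0.270% for DR2. Among the members a DR5 was found only in the Rarb window, from base −53 to −37, and no DR1 or DR2 was found. The 250 bases before the start are shown for Rarb, which holds the DR5, for Rbp4 and Aldh1a1, the members with the highest liver levels, and for Lrat, whose window held none. Capitals mark the hexamers, on either strand.
Rarb, chr14:16575477-16575726, minus strand: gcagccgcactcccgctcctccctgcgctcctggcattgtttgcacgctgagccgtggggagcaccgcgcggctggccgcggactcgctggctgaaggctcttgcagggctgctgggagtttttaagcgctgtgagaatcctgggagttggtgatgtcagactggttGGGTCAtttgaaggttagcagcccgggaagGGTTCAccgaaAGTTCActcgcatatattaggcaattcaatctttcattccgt
Rbp4, chr19:38125322-38125571, minus strand: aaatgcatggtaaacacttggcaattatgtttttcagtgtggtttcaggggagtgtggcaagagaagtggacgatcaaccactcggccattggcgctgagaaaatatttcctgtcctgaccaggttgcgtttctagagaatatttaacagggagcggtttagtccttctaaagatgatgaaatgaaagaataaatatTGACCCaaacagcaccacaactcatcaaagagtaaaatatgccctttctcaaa
Aldh1a1, chr19:20601718-20601967, plus strand: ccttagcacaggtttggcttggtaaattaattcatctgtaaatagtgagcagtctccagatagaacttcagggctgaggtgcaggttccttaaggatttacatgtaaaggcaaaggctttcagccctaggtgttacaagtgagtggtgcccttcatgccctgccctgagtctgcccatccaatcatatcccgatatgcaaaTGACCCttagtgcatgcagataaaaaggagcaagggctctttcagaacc
Lrat, chr3:82903975-82904224, minus strand: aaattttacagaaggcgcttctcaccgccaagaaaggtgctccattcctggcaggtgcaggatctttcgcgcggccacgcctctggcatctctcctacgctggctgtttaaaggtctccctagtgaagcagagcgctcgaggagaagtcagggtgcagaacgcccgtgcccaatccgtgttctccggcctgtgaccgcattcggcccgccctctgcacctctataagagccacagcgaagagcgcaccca
In the Rarb sequence, the capitals upstream of the DR5 are a single hexamer at −83 to −78. The capitals at −53 to −48 of Rbp4 and at −49 to −44 of Aldh1a1 are single hexamers on the opposite strand. A match gives letters only, and binding was not measured. The Rarb window starts inside the longer gene model that was counted, which spans chr14:16430839-17082331 on the minus strand.

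Fragments on genes numbered 21092501 to 24285055 per liver library and 15688495 to 18043306 per kidney library. Hepatocyte albumin (Alb) averaged 46642 FPKM in the LD livers against 4.61 in the LD kidneys, and the summed proximal tubule markers stayed under 0.12 FPKM in every liver. The liver of A94 and the kidney of A115 stood apart. The mean correlation across genes with the other libraries of the organ was 0.941 for the liver of A94, against at least 0.977 for the other livers. It was 0.858 for the kidney of A115, against at least 0.932, and mitochondrial genes took 33.8% of the fragments there against at most 18.02% in the other kidneys. Differences between the conditions that rest on these libraries are given with and without them. The methods name a pair of sequencing providers, with Illumina HiSeq and NovaSeq instruments, and do not say which libraries came from which, so a difference between providers cannot be told apart from organ or condition in any comparison below. Tests used log2(FPKM + 0.1) in limma across all expressed genes, with Benjamini-Hochberg adjustment, and a log2 difference below means a difference of these values.

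The 9 members divided by organ. Lrat, Rbp4 and Aldh1a1 were higher in liver, while Rdh10, Aldh1a2, Rarb and Stra6 were higher in kidney, under LD and under ADV. In each condition 7 of the 9 passed the test between organs (limma, adjusted p under 0.05), while 66.3% of all genes tested passed under LD and 62.3% under ADV. Higher in liver were 11% of all genes under LD and 11.2% under ADV, and higher in kidney 55.3% and 51.2%, since the median gene lay 0.79 lower in liver under LD on the log2 scale. Scaling by the median ratio brought that median to −0.03 and the share of calls higher in liver from 16.6% to 45.9% under LD. A call between organs is therefore common here, and the size and the order of the levels describe the members better than the count.

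**Figure D1:**
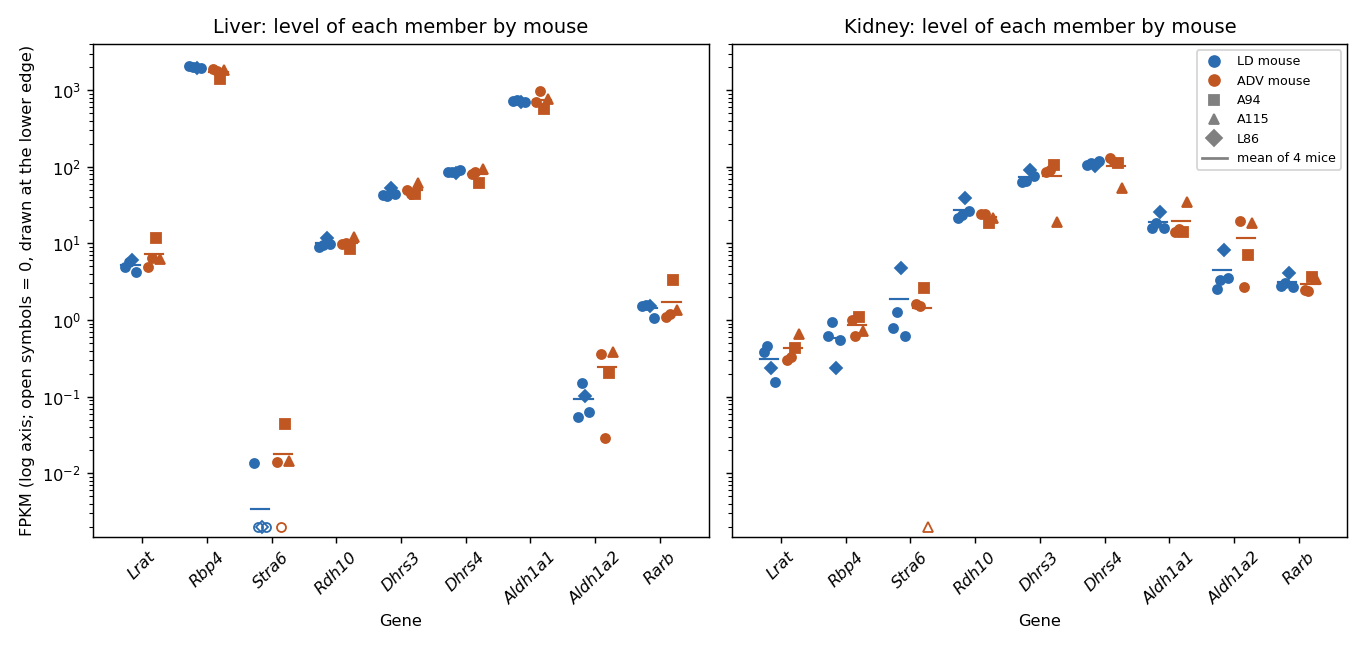
Level of each member (FPKM, log axis) in the liver (left) and kidney (right) of each mouse, with LD mice in blue, ADV mice in orange and a bar at the mean of 4 mice. In liver Rbp4 and Aldh1a1 lie far above the other members in all 8 mice, and in kidney the triangle of A115 lies below the others for Stra6, Dhrs3 and Dhrs4.

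In liver the order of mean FPKM over the 8 mice was Rbp4 (1858), Aldh1a1 (733), Dhrs4 (83.5), Dhrs3 (47.5), Rdh10 (10.1), Lrat (6.30), Rarb (1.58), Aldh1a2 (0.169) and Stra6 (0.0107). The ranges of neighbours in that order overlapped only for Rdh10 and Lrat and for Aldh1a2 and Stra6. The export protein and one retinaldehyde dehydrogenase thus stood above the other members, among them the reductases Dhrs4 and Dhrs3, and further above Rdh10 and Lrat, which oxidize and esterify retinol. In kidney the order was Dhrs4 (106), Dhrs3 (74.4), Rdh10 (24.9), Aldh1a1 (19.3), Aldh1a2 (8.19), Rarb (3.07), Stra6 (1.65), Rbp4 (0.724) and Lrat (0.369). Each neighbouring pair there overlapped in range, and the higher gene of the pair was higher in 8 of 8 mice for Dhrs4 over Dhrs3 and in 7 of 8 for every other pair. In bulk tissue, fewer cells of a type and less RNA per cell cannot be told apart, which holds for every level below.

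Lrat (chr3:82892582-82903974, minus strand), the enzyme that esterifies retinol for storage, was measured in liver at 4.92, 5.74, 6.06 and 4.29 FPKM in L63, L65, L86 and L104. In the ADV livers it was 4.94, 6.38, 11.7 and 6.34 FPKM in A75, A91, A94 and A115. A91, A94 and A115 lay above all 4 LD mice and A75 lay within them, so the groups overlapped, and A94 alone was far above the rest. The means were 5.25 ± 0.800 and 7.34 ± 2.98 FPKM (SD, n = 4 each), and the log2 difference was 0.41 (SE 0.24, limma adjusted p = 0.494). Without A94 it was 0.17 (SE 0.15, adjusted p = 0.637). In the kidneys Lrat lay between 0.155 and 0.654 FPKM, and the liver mean was 17.0 times the kidney mean, with liver higher in 8 of 8 mice. The log2 difference between the organs was 3.76 (SE 0.30) under LD and 3.78 (SE 0.30) under ADV, with limma adjusted p of 2.95e-08 and 3.29e-08.

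Since Lrat and stored retinyl ester are known features of hepatic stellate cells, the stellate list stands beside it. Of its 10 marker genes, 9 were higher and 1 lower in ADV livers, none passed the test, and the median log2 difference was 0.38, while the median over all 12835 genes tested in liver was 0.10. Without A94, 8 were higher and 2 lower, with a median of 0.17, beside 0.025 over all genes. The summed level of the list was between 72.8 and 86.2 FPKM in LD livers and between 82.8 and 114 in ADV livers, highest in A94. Colec10, Hgf and Ngfr lay higher in all 4 ADV livers than in all 4 LD livers, as did 6.94% of all genes tested. Marker sums of some other cells also differed between the conditions. The macrophage list summed to between 99.5 and 132 FPKM in LD livers and to 153, 135, 464 and 144 in A75, A91, A94 and A115. The myofibroblast list summed to between 11.8 and 12.9 FPKM in LD livers and to 45.5, 13.1, 159 and 32.4 in the same ADV livers. In both lists every ADV liver thus lay above every LD liver, A94 being the highest and A91 only just above the LD range. Gene by gene, 5 of the 7 macrophage genes and 1 of the 8 myofibroblast genes lay higher in all 4 ADV livers. The share over all genes was the 6.94% given above. All 7 macrophage and all 8 myofibroblast genes were higher on average in ADV livers and none passed the test, with median log2 differences of 0.78 and 1.81, and without A94 of 0.40 over 7 genes and 1.09 over the 6 then tested. Of the myofibroblast list, the paper reports Acta2, Col1a1, Col1a2, Col3a1 and Lum as upregulated in ADV livers, where its test was DESeq2 on counts. The lymphocyte list was 65.1 FPKM in A94 and between 2.07 and 4.51 in the other livers. The mesothelium list was also highest in A94, at 6.48 FPKM, close to 6.37 in A115 and 6.06 in A75. It was lowest in A91, at 2.52 FPKM, below the LD range of 3.25 to 4.23, so the groups overlapped. The endothelium list did not peak in A94, at 65.3 FPKM against 91.4 in A115, nor did the adipocyte list, at 10.52 against 25.9 in A91. The part of these cells in the liver differences of Lrat and of Rbp4 was not tested.

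Rbp4 (chr19:38116620-38125321, minus strand), the plasma carrier of retinol, was the member with the highest liver level, and its liver groups were the only groups of a member in either organ that did not overlap between ADV and LD. The LD livers gave 2069.7, 2013, 1949 and 1973 FPKM in L63, L65, L86 and L104, and the ADV livers 1863, 1782, 1410.1 and 1806 in A75, A91, A94 and A115. All 4 ADV mice were thus below all 4 LD mice, with A94 the lowest. The LD livers were close together and the ADV livers more spread, with means of 2001 ± 52.8 and 1715 ± 206 FPKM (SD, n = 4 each), a ratio of 0.857. The log2 difference was −0.23 (SE 0.14) and did not pass the test across genes (limma adjusted p = 0.494). The two-sided exact permutation test over the 70 assignments of mice gave p = 0.0286, the smallest it can give. Over all genes tested in liver, 1.89% had the 4 ADV mice below the 4 LD mice, and among the 7 members tested Rbp4 was the 1 that did. Without A94 the log2 difference was −0.14 (SE 0.11, adjusted p = 0.586), and the 3 other ADV mice still lay below the LD mice.

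Alb and Ttr, which like Rbp4 are secreted by hepatocytes, are a comparison for this difference. TTR is the plasma partner of RBP4. Ttr was 3517 ± 285 FPKM in LD and 3704 ± 292 in ADV livers, a log2 difference of 0.07 (SE 0.15), and Alb differed by −0.05 (SE 0.27). Of the 7 hepatocyte markers, 4 were higher and 3 lower in ADV livers, none passed the test, and their median difference was 0.00 on the log2 scale. In kidney Rbp4 lay between 0.235 and 1.11 FPKM, the log2 difference was 0.55 (SE 0.37), and the groups overlapped. The difference of the ADV effect between liver and kidney was −0.78 (SE 0.38) for Rbp4, with an unadjusted limma p of 0.0556 and an adjusted p of 0.9999, and an exact permutation p of 0.0857. Alb was between 2.83 and 5.71 FPKM in the kidneys, and the part of liver transcripts in the low kidney level of Rbp4 was not tested.

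Stra6 (chr9:58129349-58153997, plus strand), the receptor that takes retinol from RBP4 into cells, was nearly absent from liver. The LD livers held 1, 0, 0 and 0 fragments and the ADV livers 1, 0, 3 and 1, in the order of mice used above, and no fold is given for such counts. In the kidneys of L63, L65, L86 and L104 it was 0.794, 1.27, 4.77 and 0.621 FPKM. In the kidneys of A75, A91, A94 and A115 it was 1.60, 1.52, 2.59 and 0 FPKM. L86 was the highest kidney, and A115 held no fragment, which allows up to 3 fragments or 0.0519 FPKM, so the groups overlapped. The log2 difference was −0.63 (SE 1.08, limma adjusted p = 0.9999) with all mice and 0.44 (SE 0.60, adjusted p = 0.618) without A115, so that its direction rests on that library. The call between organs under ADV depended on the test, with an adjusted p of 0.00493 by limma on log2 values and 0.0549 by limma-voom on fragments. The related liver receptor gene Stra6l, also known as Rbpr2, was at 18.6 ± 2.22 FPKM in LD and 27.2 ± 5.33 in ADV livers. Its ADV range of 21.0 to 33.8 overlapped the LD range of 16.5 to 21.7 FPKM at 1 mouse each.

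Rdh10 (chr1:16105882-16132550, plus strand), which oxidizes retinol to retinaldehyde, was close to even among the livers, at 8.57 to 12.02 FPKM, and higher in kidney. In kidney it was 21.6, 23.4, 39.1 and 26.1 FPKM in the LD mice L63, L65, L86 and L104, and 24.2, 24.3, 18.5 and 21.5 in the ADV mice A75, A91, A94 and A115. L86 was the highest and A94 the lowest, and the groups overlapped. The log2 difference of ADV from LD was 0.02 (SE 0.13) in liver and −0.28 (SE 0.21) in kidney. The kidney mean was 2.47 times the liver mean over the 8 mice, and kidney was higher in 8 of 8. By the exact sign-flip permutation test over the mice p was 0.00781, the smallest it can give. Scaling by the median ratio took the difference between organs from −1.12 to −0.40 under ADV, where it no longer passed the test (adjusted p = 0.143).

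Dhrs3 (chr4:144893137-144927645, plus strand), which reduces retinaldehyde back to retinol, lay between 41.0 and 60.9 FPKM in the livers. In kidney it was 63.1, 64.8, 89.8 and 76.4 FPKM in L63, L65, L86 and L104. It was 85.1, 91.2, 106 and 18.8 FPKM in A75, A91, A94 and A115. Without A115 the ADV kidneys were on the higher side, with A75 inside the LD range and A91 and A94 above it, while A115 was far below every other kidney. The log2 difference was −0.21 (SE 0.52) with A115 and 0.37 (SE 0.14, limma adjusted p = 0.102) without it. Dhrs4 (chr14:55478758-55490340, plus strand), a reductase of retinaldehyde found in peroxisomes, did much the same in A115. Its kidney level there was 52.5 FPKM and between 102 and 129 FPKM in the other 7 kidneys, and its log2 difference was −0.18 (SE 0.28) with A115 and 0.11 (SE 0.09) without it. In liver Dhrs4 was lowest in A94, at 61.0 FPKM, and between 81.6 and 94.6 in the others.

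Neither Dhrs3 nor Dhrs4 passed the test between organs, with limma adjusted p of 0.138 and 0.193 under LD and 0.474 and 0.300 under ADV. Kidney was the higher organ in 7 of 8 mice for both, A115 being the exception. Without A115 both passed in each condition, with adjusted p of 0.000121 and 0.00715 under LD and 1.52e-05 and 0.000193 under ADV. Under scaling by the median ratio both turned higher in liver, so their order between the organs depends on the scaling.

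The ratio of Dhrs3 to Rdh10, the reverse and the forward step between retinol and retinaldehyde, is free of the library total. It was chosen after the levels had been seen. In liver it was 4.52 ± 0.178 under LD and 4.93 ± 0.334 under ADV (SD, n = 4 each, exact permutation p = 0.114, and 0.2 without A94), with overlapping groups. In kidney it was between 2.30 and 2.93 in the LD mice, and 3.52, 3.75, 5.75 and 0.874 in A75, A91, A94 and A115. The kidneys of A75, A91 and A94 were above all LD kidneys and that of A115 below them all. The exact permutation p over the 8 mice was 0.943, and without A115 it was 0.0286, the smallest that the 35 assignments of the 7 mice can give.

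**Figure D2:**
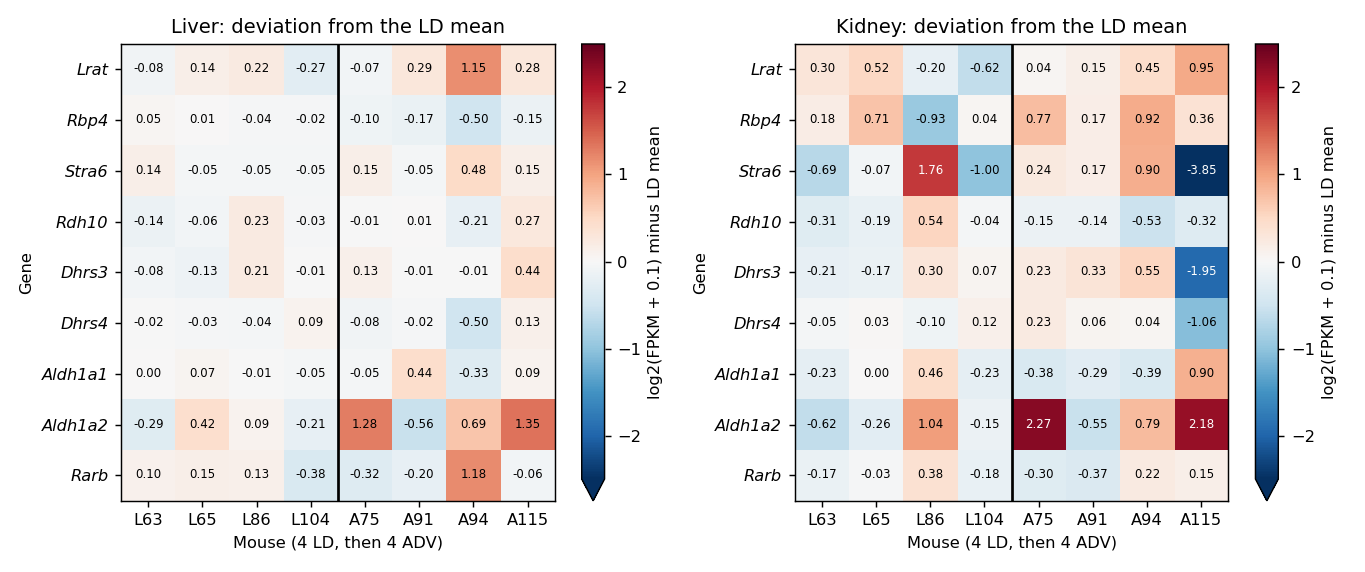
Deviation of each mouse from the LD mean of its organ on the log2(FPKM + 0.1) scale, for the 9 members in liver (left) and kidney (right). The liver of A94 was 1.15 above the LD mean for Lrat and 1.18 above it for Rarb, and the kidney of A115 stood at −1.95 for Dhrs3 and −3.85 for Stra6.

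Aldh1a1 (chr19:20601982-20643462, plus strand), a retinaldehyde dehydrogenase, was the second most abundant member in liver. The LD livers L63, L65, L86 and L104 gave 716, 750.2, 709 and 690.4 FPKM. The ADV livers A75, A91, A94 and A115 gave 691, 971, 571 and 764. The 4 LD mice were close together, and both the highest and the lowest liver, A91 and A94, were ADV mice. The means were 716 ± 25.04 and 749 ± 168 FPKM (SD, n = 4 each), with a log2 difference of 0.04 (SE 0.16, limma adjusted p = 0.929). The liver mean was 37.9 times the kidney mean, with liver higher in 8 of 8 mice.

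In kidney Aldh1a1 was 15.9, 18.7, 25.6 and 15.9 FPKM in L63, L65, L86 and L104, and 14.3, 15.2, 14.2 and 34.8 in A75, A91, A94 and A115. The kidneys of A75, A91 and A94 were below all 4 LD kidneys and that of A115 was above every other kidney. With all mice the log2 difference was −0.04 (SE 0.32, limma adjusted p = 0.9999), and without A115 it was −0.35 (SE 0.17, adjusted p = 0.160). With A115 left out and median-ratio scaling it was −0.54 (SE 0.16, adjusted p = 0.0483), and Aldh1a1 was then the 1 member that passed. In that fit 16% of all genes tested passed, so 1 of 9 members is no larger a share. Without A115 and with the deposited scaling, 18.8% of all genes passed and 0 of 9 members did, and the median over all genes in kidney was then 0.20 higher in ADV on the log2 scale. Aldh1a7 is a close paralog of Aldh1a1, and although reads of low mapping quality were removed, whether reads of one were counted for the other was not tested. Aldh1a7 was at 125 ± 11.7 FPKM in LD livers and 13.8 ± 4.16 in LD kidneys.

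Aldh1a2 (chr9:71215789-71296243, plus strand), the dehydrogenase that makes retinoic acid in embryos and in mesothelial and stromal cells, varied most among the kidneys of the 8 members with a fragment in every kidney, by 7.71 times from the lowest to the highest. The LD kidneys L63, L65, L86 and L104 gave 2.55, 3.31, 8.29 and 3.59 FPKM. The ADV kidneys A75, A91, A94 and A115 gave 19.7, 2.70, 6.99 and 18.4 FPKM. A75 and A115 lay above every LD kidney, while A91 and A94 lay within the LD range. The means were 4.44 ± 2.61 and 11.9 ± 8.40 FPKM (SD, n = 4 each), and the log2 difference of 1.17 (SE 0.66) did not pass the test (limma adjusted p = 0.9999, exact permutation p = 0.229). Without A115 it was 0.84 (SE 0.63, adjusted p = 0.353). In liver the level was between 0.0288 and 0.383 FPKM, from 1.5 to 20 fragments a library, which was under the limit for the test. A75 and A115 held the 2 highest livers as well as the 2 highest kidneys.

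Lists of stromal markers stood differently beside Aldh1a2. The myofibroblast list summed to 198, 148, 111 and 71.9 FPKM in the kidneys of A75, A94, A115 and L86, which are also the 4 kidneys with the most Aldh1a2, and to between 33.2 and 57.0 in the other 4. All 8 genes of the list were higher on average in ADV kidneys and none passed the test, with a median log2 difference of 1.33, while the median over all 14452 genes tested in kidney was −0.02. Without A115 all 8 were again higher, none passed, and the median was 1.12. Acta2, the muscle actin of that list, was 44.03 FPKM in the kidney of A75 but 13.1 in that of A115, within the LD range of 7.77 to 14.99. The list written for hepatic stellate cells summed to 13.1 FPKM in A115, the lowest kidney, and to between 37.5 and 77.9 in the others, and most of that gap was Ecm1, at 5.10 FPKM in A115 against 26.8 to 31.4 in LD. Its pericyte and mesenchymal genes Pdgfrb and Des were also lowest in A115, at 2.65 and 0.291 FPKM, while Hgf, at 4.14, was highest there. The sum of the mesothelium list, 35.7 FPKM in A75 and 66.4 in A115, was mostly Gpm6a, at 27.6 and 61.1 FPKM there. Its other 4 genes summed to 8.17 FPKM in A75 and 8.15 in A94, the highest kidneys, and to 5.29 in A115, the lowest, of which Wt1, also a podocyte gene, was 4.55. The markers did not move together in A115. Wt1 and Gpm6a were higher there than in any other kidney, and Msln, at 0, and Upk3b, at 0.695 FPKM, lower than in any other. Lrrn4 was also highest in A115, but near the floor, at 0.0452 FPKM against at most 0.0168 in the others. The part of stromal and mesothelial cells in the Aldh1a2 level was not tested. The ratio of Aldh1a1 to Aldh1a2 in kidney was between 3.09 and 6.21 in the LD mice. It was 0.724, 5.64, 2.04 and 1.89 in A75, A91, A94 and A115 (exact permutation p = 0.114, and 0.2 without A115), so that Aldh1a2 exceeded Aldh1a1 in A75 alone.

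**Figure D3:**
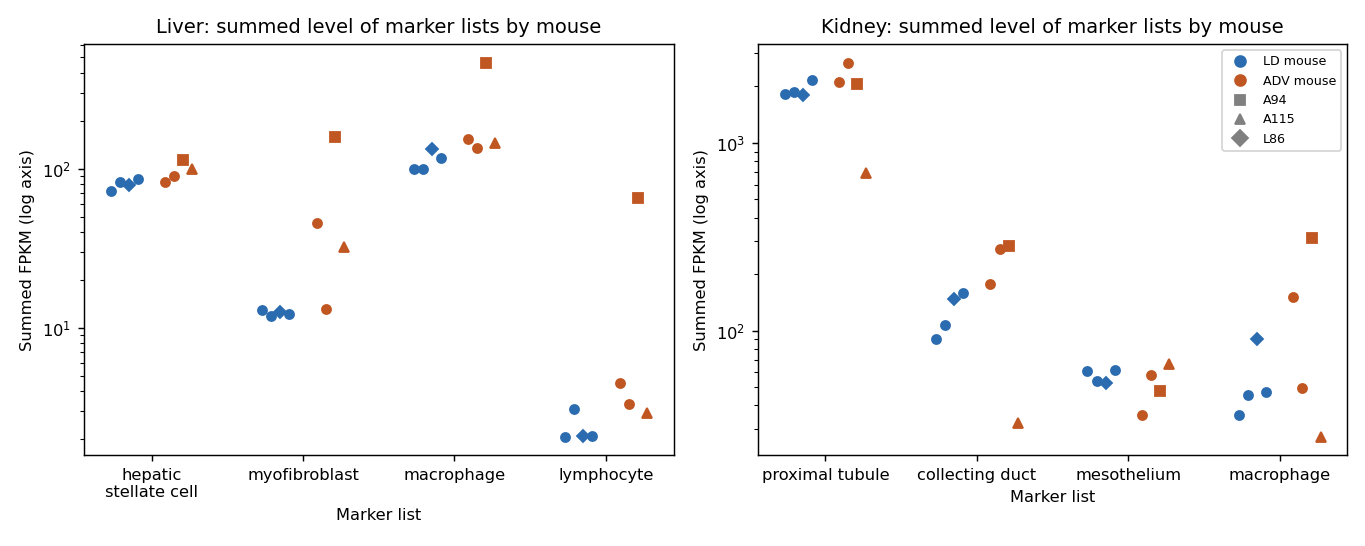
Summed FPKM (log axis) of lists of marker genes in each liver (left) and kidney (right), with LD mice in blue and ADV mice in orange. The liver of A94 (square) is highest for the 4 liver lists shown. The kidney of A115 (triangle) is lowest for the proximal tubule, collecting duct and macrophage lists and highest for the mesothelium list.

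Rarb, the retinoic acid receptor beta, was 1.51, 1.57, 1.54 and 1.05 FPKM in the livers of L63, L65, L86 and L104. It was 1.11, 1.202, 3.30 and 1.34 FPKM in those of A75, A91, A94 and A115. A94 was the highest and the other 3 ADV livers lay within the LD range. The log2 difference was 0.15 (SE 0.32, limma adjusted p = 0.852) with A94 and −0.19 (SE 0.17, adjusted p = 0.619) without it. In the kidneys Rarb ran from 2.38 to 4.06 FPKM with overlapping groups and a log2 difference of −0.08 (SE 0.22). Kidney was the higher organ in 8 of 8 mice, and the kidney mean was 1.94 times the liver mean. The difference between organs was −1.09 under LD and −0.87 under ADV (adjusted p = 0.00388 and 0.0173). After scaling by the median ratio it was −0.32 and −0.18 and no longer passed (adjusted p = 0.361 and 0.630), and after quantile normalization it was −0.059 and 0.061, so the call rests on the deposited scaling.

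Between the conditions, then, none of the 7 members tested in liver and none of the 9 tested in kidney passed the limma test, and none had an unadjusted p under 0.05. The smallest unadjusted p was 0.121 in liver (Rbp4) and 0.114 in kidney (Aldh1a2), and limma-voom on fragments also gave 0 in each organ. Over all genes tested, 0.00779% passed in liver and 0% in kidney, where the smallest adjusted p was 0.9999. In liver 1512 of 12835 genes (11.8%) and in kidney 448 of 14452 (3.1%) had an unadjusted p under 0.05. Of the members tested, 5 were higher and 2 lower in ADV livers, with a median log2 difference of 0.04, and 3 were higher and 6 lower in ADV kidneys, with a median of −0.08. The difference of the ADV effect between liver and kidney passed for 0 of 9 members and for 0% of the 14379 genes tested, of which 536 had an unadjusted p under 0.05.

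**Figure D4:**
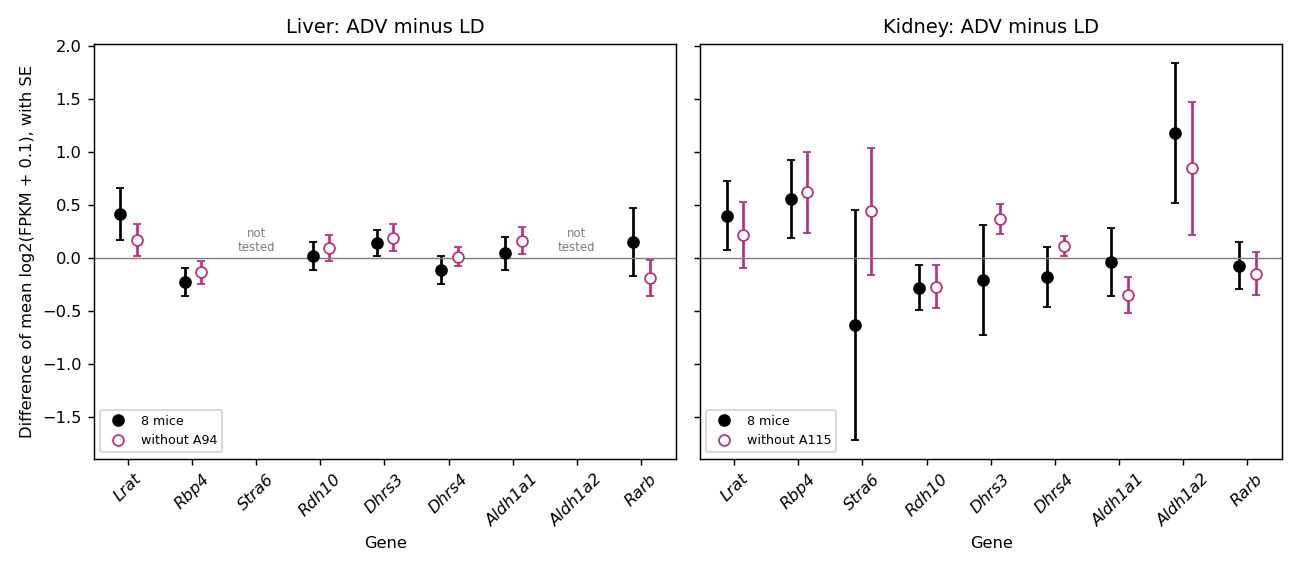
Difference of ADV from LD in mean log2(FPKM + 0.1) with its SE for each member in liver (left) and kidney (right), with 8 mice (filled) and without the library that stood apart (open). In kidney, Stra6 went from −0.63 to 0.44, Dhrs3 from −0.21 to 0.37 and Dhrs4 from −0.18 to 0.11 when A115 was left out.

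The members that were extreme in A94 and A115 were not extreme alone. In the liver of A94, 4 of the 9 members had their lowest level of the 8 mice (Rbp4, Rdh10, Dhrs4 and Aldh1a1) and 3 their highest (Lrat, Rarb and Stra6). In the kidney of A115, 3 had their lowest (Stra6, Dhrs3 and Dhrs4) and 2 their highest (Lrat and Aldh1a1). That kidney was also low in markers of the proximal tubule, which summed to 688 FPKM against between 1792 and 2678 in the other kidneys, and of the collecting duct, at 32.2 against between 89.9 and 281. A115 was also the lowest kidney for loop of Henle and distal tubule markers, at 1233 FPKM against between 1751 and 2874 elsewhere. The same held for podocyte markers, at 44.6 FPKM against 62.3 to 78.9, and macrophage markers, at 27.2 against 35.5 to 312. It was the highest kidney for the endothelium and mesothelium lists, at 106 and 66.4 FPKM. Slc5a2, the glucose transporter of the early proximal tubule, was 7.51 FPKM in A115 and between 62.2 and 150.1 elsewhere. Slc7a13, a transporter of the late proximal tubule, was 221 FPKM there and between 281 and 643 elsewhere. The markers of the proximal tubule were not low to the same degree. A115 was the lowest kidney for 6 of the 7, and the phosphate transporter Slc34a1 gave most of the gap in the sum, at 154 FPKM against 801 to 1553. Lrp2 was 95.2 FPKM against 110 to 155 and Cubn 38.3 against 38.9 to 55.4, while Slc5a12 was the highest of the kidneys, at 111 FPKM against 50.3 to 81.6. Of the 4 collecting duct markers 3 were lowest in A115, and Atp6v1g3, at 19.0 FPKM, lay above the LD range of 13.0 to 15.9. The kidney of A94 stood apart in immune markers, with a lymphocyte sum of 70.2 FPKM against 3.45 to 7.49 in the others. Its macrophage sum was 312 FPKM against 27.2 to 152 in the others. Among the 8 kidneys it had the highest Rbp4 and Dhrs3 and the lowest Rdh10 and Aldh1a1. The part of these values in the levels of the members was not tested.

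Correlations between members within an organ turned on the same libraries. Over the 8 livers, on log2 levels, Lrat correlated with Rbp4 at r = −0.91 and with Rarb at 0.90, and without A94 these were −0.55 and 0.46. Dhrs4 and Rbp4 went from 0.81 to −0.19. Rdh10 and Dhrs3 kept 0.85 with A94 and 0.91 without it. In the kidneys Dhrs3 correlated with Dhrs4 at 0.93 and with Stra6 at 0.92, and without A115 at 0.14 and 0.66, while Rdh10 and Rbp4 were at −0.88 and −0.89. These are descriptions over 8 or 7 mice of 2 conditions that share their libraries' scaling.

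The genes most like each member were sought among all expressed genes of the organ where the member was higher, as the 3 best of 12834 genes in liver or 14451 in kidney over 8 mice. Such best values are high by selection and carry no test. Lrat was followed most closely in liver by Rpusd4, Tnfrsf14 and Gmds (r between 0.98 and 0.99, and between 0.92 and 0.95 without A94). Among the 3 best for Rbp4 were Proz and Slc25a46 (0.97 and 0.96, and 0.85 and 0.83 without A94), and among those for Aldh1a1 were Sult2a7 and Tlcd2 (0.99 and 0.97, and 0.98 and 0.97 without it). In kidney Dhrs3 was followed by Timmdc1, Ccdc86 and Dhrs13, Dhrs4 by Kalrn, Osbpl7 and Fitm2, and Stra6 by Fam122a, Rhbdd1 and Il1b, at r between 0.979 and 0.997 and, without A115, between 0.92 and 0.98. Aldh1a2 was followed by Steap4, Sparcl1 and Rraga (0.97 to 0.98, and the same range without A115). Rarb was followed by Mctp1, Rcn2 and Taf4 (0.93 to 0.94), and Rdh10 by Cd209a, Grb10 and Cnih4 (0.89 to 0.90).

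The other genes of retinoid metabolism, 72 in 8 lists by role, gave the setting of the members. In the livers Adh1, an alcohol dehydrogenase of retinol, averaged 1514 FPKM, Rdh7 572 and Adh5 301. In the kidneys Adh1 averaged 299, Adh5 115.5 and Rdh16 38.6. These forward oxidizing genes were thus far above Rdh10 in liver, on the same per-length scale. Among carriers, Ttr led in liver (3611) before Stra6l (22.9) and Fabp5 (15.9), and Lrp2, the tubule receptor that recovers filtered RBP4, led in kidney (129) before Ttr (25.5) and Fabp5 (7.31). Among esterases and lipases the highest were Ces1d (750.2), Ces1f (291) and Ces2a (206) in liver and Ces1f (334), Ces1d (182) and Lpl (152) in kidney. For uptake and cleavage they were Cd36 (34.2), Scarb1 (32.8) and Bco2 (6.76) in liver and Cd36 (123), Bco2 (5.65) and Scarb1 (3.44) in kidney, in mean FPKM.

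In the list written for retinaldehyde oxidation, Aldh1a7 (117), Aldh8a1 (108) and Aox3 (100.1) were highest in liver, below Aldh1a1. In kidney they were Aldh8a1 (142), Aldh1a7 (13.4) and Aldh1a3 (2.95). Whether each listed enzyme, among them the paralog Aldh1a7, acts on retinaldehyde was not measured. The breakdown enzymes of retinoic acid were led by Cyp26a1 (39.6), Cyp26b1 (5.23) and Cyp2c39 (1.17) in liver and by Cyp2s1 (3.87), Cyp26b1 (3.03) and Cyp26a1 (0.321) in kidney. Cyp26a1, a gene that retinoic acid induces, was thus a liver gene like Rbp4 and Aldh1a1. The receptors Rxra (70.1), Rxrb (7.53) and Rara (4.14) led in liver and Rxra (19.7), Rxrb (9.37) and Rara (5.25) in kidney, above Rarb in both organs. Of genes known to be induced by retinoic acid, the highest were Rarres2 (483), Tgm2 (48.5) and Cyp26a1 in liver and Tgm2 (57.1), Rarres2 (46.4) and Nrip1 (4.78) in kidney.

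Between the conditions, 0 of the 55 such genes tested in liver and 0 of the 49 in kidney passed the limma test. In liver 26 were higher and 29 lower in ADV, with a median log2 difference of −0.02, and 9 had an unadjusted p under 0.05, 6 higher and 3 lower, beside 11.8% of all genes tested in liver. The smallest p among the higher were those of Stra6l (0.53, SE 0.15), Bco2 (0.43, SE 0.15) and Lpl (1.19, SE 0.41), and among the lower those of Dgat1 (−0.28, SE 0.12), Rdh5 (−0.36, SE 0.15) and Rdh13 (−0.34, SE 0.15), all as log2 differences. BCO2 cleaves carotenoids and LPL is a lipase that can free retinol from circulating retinyl ester. Lpl was the only one of the 55 whose groups did not overlap, at 2.02 to 2.94 FPKM in LD and 3.28 to 14.4 in ADV livers. It was highest in A94, and the other ADV livers were at 3.28, 3.51 and 5.12 FPKM, still above every LD liver. Of all genes tested in liver, 6.94% had groups apart with ADV higher and 1.89% with ADV lower. Without A94, 29 of the 55 were higher and 26 lower, with a median of 0.03, and 0 passed.

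In kidney 21 were higher and 28 lower, with a median of −0.08, and 6 had an unadjusted p under 0.05, 1 higher and 5 lower, beside 3.1% of all genes tested in kidney. Lpl (−0.66, SE 0.16), the carboxylesterase gene Ces1g (−2.61, SE 0.83) and Cyp26a1 (−0.997, SE 0.33) had the smallest p among the lower, and Aox1 (0.62, SE 0.20) and Stra6l (0.69, SE 0.34) were first among the higher. Lpl was 144 to 222 FPKM in LD and 106 to 123 in ADV kidneys, so that its groups were apart in both organs, higher in ADV livers and lower in ADV kidneys. Groups also did not overlap for Cyp26a1, Aldh8a1 and Nrip1, lower in ADV kidneys, and for Aox1 and Stra6l, higher there. That makes 4 of 49 lower and 2 of 49 higher, while over all genes tested in kidney 1.83% were lower and 0.962% higher in this way. Cyp26a1 and Aox1 were low in kidney, under 0.73 FPKM in each.

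The calls in the kidney and the direction of some genes of these lists depended on A115. Without it 35 of the 49 were higher and 14 lower, with a median of 0.31, 14 had turned direction, and 9 passed the limma test, 7 higher and 2 lower in ADV. These are 18.4% of the 49, beside 18.8% of all genes in the same fit, where the median over all genes was 0.20. The genes named next were chosen after their values had been seen. Higher were the retinoid receptor genes Rara, Rxra and Rxrb, the lipid enzyme genes Dgat1 and Pnpla2, and Rarres2 and Tgm2, and lower were Lpl and Nrip1. Rxra was 5.32 FPKM in A115, between 24.5 and 27.4 in the other ADV kidneys and between 17.4 and 19.9 in the LD kidneys. Dgat1, which makes triglyceride and can esterify retinol, was 1.79 FPKM in A115, between 11.8 and 13.0 in the other ADV kidneys and between 9.70 and 10.4 in LD. With A115 left out and median-ratio scaling 4 of the 49 passed, Rxrb higher and Lpl, Nrip1 and Aldh8a1 lower, beside 16% of all genes.

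**Figure D5:**
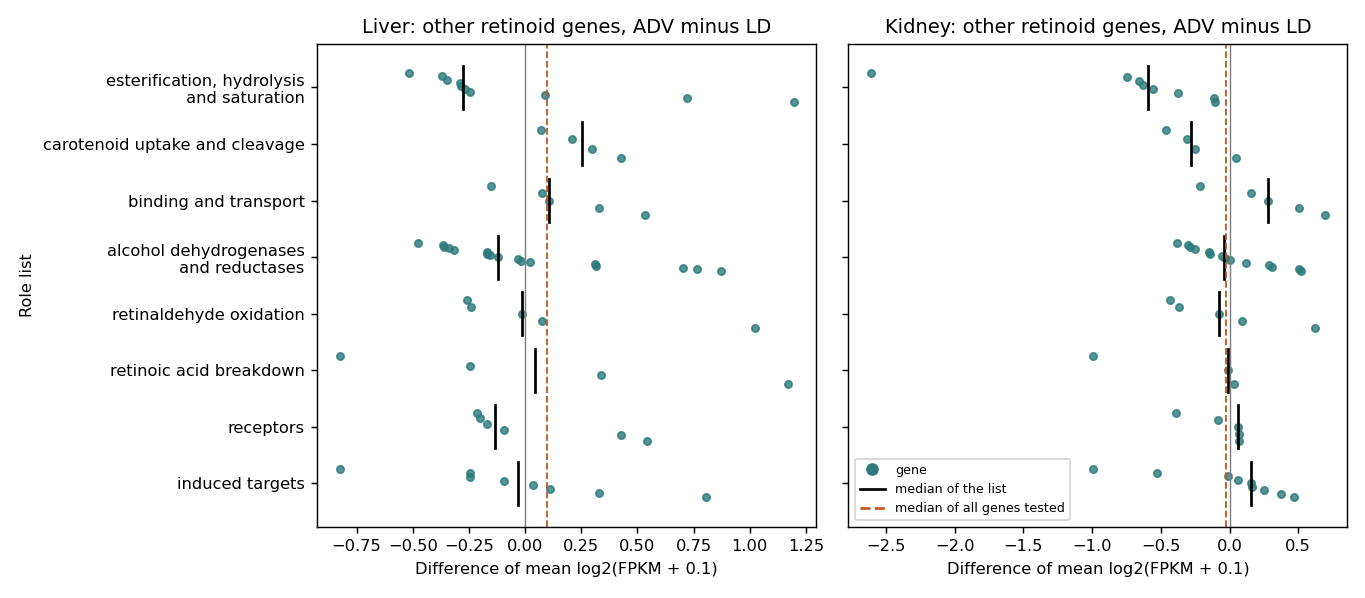
Difference of ADV from LD in mean log2(FPKM + 0.1) for the other retinoid genes tested, by role list, in liver (left) and kidney (right), each point a gene, with a bar at the list's median and a dashed line at the median of all genes tested. The 8 esterification, hydrolysis and saturation genes tested in kidney all lie below 0 with the 8 mice, with a median of −0.59, and none passed the test. Without A115, 4 of the 8 lay above 0, and their median was −0.089.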

How the data were processed

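Liver and kidney RNA of 4 LD and 4 ADV mice was measured by RNA-seq, 1 library per mouse and organ. The submitters' processing notes name STAR 2.5.4b, HOMER and the mm10 build. According to the methods, adaptors were trimmed, reads of low mapping quality were removed and exons of UCSC known canonical genes were quantified. The deposited tables hold FPKM, which the authors divided by each library's total with no further normalization. Multiplied by exon length and total, 100% of the values came out on steps of 0.5 fragment (tolerance 0.02 steps), so fragments could be recovered. Sequencing was done by a pair of providers on Illumina HiSeq and NovaSeq instruments, and which library came from which is not given in the sources used here, so no provider batch could be tested.

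Members were matched by symbol in each table. Genes with a mean above 0.5, in FPKM before division by exon length, over the libraries of a fit were tested on log2(FPKM + 0.1) with limma 3.58.1 in R 4.3.3 (lmFit, and eBayes with a trend), in each organ apart for ADV against LD and over both organs for the comparisons between organs. Benjamini-Hochberg adjusted p under 0.05 counted as a call. Single values were also compared with two-sided exact permutation tests over the 70 assignments of 4 of 8 mice and, between organs, over the 256 sign flips of 8 mice. In the liver fit 7 of 9 members passed the filter, and in the kidney fit 9. Stated p-values cover the spread between these mice only. The procedure was tested on simulated data.

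Liver and kidney carry the same mouse number in the labels, and were taken as a pair from 1 animal. As a check, deviations from the group means were correlated across genes between the organs of a mouse, and 5 of the 8 values were above 0.1, from −0.0242 to 0.553. Marker and role lists were written from general knowledge. Members, lists and tests were chosen with earlier results of these data known, so none is independent evidence. Named genes are the members, in the role lists the 3 genes of smallest p per direction and organ and the 3 of highest mean level in each organ, for likeness the 3 best correlated genes per member, and markers of lists given beside a member. A few genes that this rule selects are not reported here. Groups that did not overlap and ratios of members were picked after the values had been seen. So were A94 and A115 as libraries to leave out of correlations, ratios and the role lists. The same holds for Alb and Ttr as comparisons, and for the markers and marker lists named for the kidneys of A94 and A115. Alternatives were other pseudocounts, filters and scalings, limma-voom on the recovered fragments, totals without mitochondrial genes, 1 fit over both organs, a block for the mouse and leaving out each mouse. DESeq2, the study's test on counts, was not run here.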

Additional observations from a re-analysis of the deposited data

Results flagged for a closer look

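In groups of 4 mice, the highest or lowest mouse was compared with the others by Dixon's ratio. Of 36 groups of a member, organ and condition, 5 had such a mouse, and chance gives about 1 in 20. Of the 5, the value for Stra6 in LD livers rests on a lone fragment among zeros, which fixes the ratio at its highest, so that it does not bear on that share. In the kidney Aldh1a1 was 34.8 FPKM in A115 and between 14.2 and 15.2 in the other ADV mice. Rarb was 3.30 FPKM in the liver of A94 and between 1.11 and 1.34 in the other ADV livers. Rarb was 1.05 FPKM in the liver of L104 and between 1.51 and 1.57 in the other LD livers. Stra6 was 4.77 FPKM in the kidney of L86 and between 0.621 and 1.27 in the other LD kidneys. Stra6 was 0.0135 FPKM, 1 fragment, in the liver of L63 and 0 in the other LD livers. The kidney of L86 was also the highest of the 8 for Rdh10 and Rarb. The causes were not tested.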

How the results depend on the processing

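The number of members that passed between the conditions stayed at 0 in liver, and in the difference of the ADV effect between organs, under every alternative run. In kidney it was 0 except for 1 (Aldh1a1) without A115 and with median-ratio scaling, where 2318 genes passed in all. Leaving out 1 mouse gave 7 to 9 members for liver against kidney under LD and 6 to 8 under ADV. It moved the count of all genes from 0 to 9 in liver, 0 to 2724 in kidney and 0 to 415 for the difference of the effects, where 2724 and 415 were without A115 and 9 without A91. Among the other retinoid genes the count stayed at 0 in liver without A94, and went from 0 to 9 in kidney without A115 and to 4 when median-ratio scaling was added, both chosen after seeing the data. With no filter on low values 6 genes passed in liver and 3 for the difference of the effects. Quantile normalization gave 0 in liver and 1 for that difference, and median-ratio scaling gave 1 in liver and 1 for that difference. A fit over both organs at once gave 2 genes in kidney.

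With the mouse as a replicate block, that fit also gave 2 genes in kidney, and the block, tested on mice paired across organs, changed no call of a member. Among members with small differences the direction turned. In liver these were Rdh10 (−0.073 with median-ratio scaling, −0.058 with quantile normalization), Aldh1a1 (−0.052 with median-ratio scaling) and Rarb (−0.038 with quantile normalization). Without A115 and with median-ratio scaling, Dhrs3 (0.18) and Stra6 (0.26) turned in kidney. Between organs, median-ratio scaling turned Dhrs3 (0.12 under LD, 0.38 under ADV) and Dhrs4 (0.46 and 0.45), and quantile normalization turned Rarb under ADV (0.061).

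Leaving out each mouse gave ranges in liver of −0.069 to 0.093 for Rdh10, −0.20 to 0.010 for Dhrs4, −0.10 to 0.16 for Aldh1a1 and −0.19 to 0.30 for Rarb, all log2 differences. In kidney they were −0.46 to 0.37 for Dhrs3, −0.32 to 0.11 for Dhrs4, −0.35 to 0.11 for Aldh1a1, −0.17 to 0.050 for Rarb and −1.15 to 0.44 for Stra6. Rbp4 in liver ranged from −0.27 to −0.14 and Lrat from 0.17 to 0.57. In kidney Rdh10 ranged from −0.39 to −0.10, Rbp4 from 0.24 to 0.79, Lrat from 0.19 to 0.57 and Aldh1a2 from 0.81 to 1.75. The difference of the ADV effect between liver and kidney ranged from −1.02 to −0.48 for Rbp4. With a minimum mean of 1 FPKM, Stra6 had no value in the comparisons between organs. The exact permutation test gave p under 0.05 for 1 of the 18 pairs of member and organ on either scale. Of the values that named a single member, 610 kept direction and call, 15 changed the call and 26 turned. The causes were not tested, and the 4 mice a group limit every comparison.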
